A study of Mus musculus with 6 samples.

Results

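Interferon-stimulated genes are the genes a cell switches on after an interferon binds its receptor. Here they are 48 genes taken by symbol for their known response to interferon, with no threshold on measured values. All 48 were found among the 25239 gene rows of the count table, and 45 of them had enough reads to be tested, of 14065 genes tested in all. Type I interferons act through the receptor chains Ifnar1 and Ifnar2 and the kinases Jak1 and Tyk2. These kinases activate a transcription complex that includes Stat2 and Irf9 and binds the interferon-stimulated response element of antiviral genes. Interferon gamma acts through Ifngr1, Ifngr2, Jak1 and Jak2 on genes with a gamma-activated site, among them those of the guanylate-binding proteins. The 48 genes were accordingly read as 28 type I antiviral genes, 9 interferon gamma-inducible GTPase genes and 11 others. These groups are a convention, since most of the genes respond to interferons of both types.

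The study compared mouse primary pulmonary fibroblasts labelled quiescent (3 libraries) with the same cell type labelled Nutlin 3a-induced senescent (3 libraries). Nutlin 3a blocks the binding of Mdm2 to p53. Per the labels' protocols, cells were kept in medium with 10% serum at 5% oxygen. The protocol gives 16 hours of the Cdk1 inhibitor RO3306 for synchronization, 48 hours of Nutlin 3a, and BI-2536, which inhibits Plk1, at 100 nM to remove dividing cells, for 12 days in total. The quiescent samples carry that protocol too, and no source used here gives the steps that led to quiescence. Strain, age and sex of the mice are not given either. The labels do not say whether replicates are separate cultures, so p-values reflect only how these samples vary, which may be technical variation.

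RNA was depleted of ribosomal RNA and sequenced in pairs of 100 bp, and the gene table held 93736593 to 109706025 counts per library. The 3 rows Rn45s, Lars2 and Mir6236 took 79.8% to 82.8% of them, which leaves 18219831 to 21386546 counts for all other genes and makes CPM values look low. CPM stands for counts per 1000000 counts of a library, here of its total after scaling by trimmed mean of M values (TMM). The fibroblast markers were abundant, with all 10 tested, 5 lower (among them Col3a1, from 1342 to 348 CPM on average) and 4 higher (among them Fn1, from 974 to 1872 CPM), and a summed level of 4827 to 4965 CPM in quiescent and 4076 to 4512 CPM in senescent libraries. Macrophage markers were low but rose: 5 of 10 were tested, all 5 were higher, and the summed level was 3.98 to 4.25 CPM in quiescent and 10.9 to 14.4 CPM in senescent libraries. Among the 5, Mrc1 had 8, 10 and 10 quiescent and 18, 23 and 28 senescent counts. It passed the filter on low counts, which sets the genes tested, through the senescent libraries alone. The pan-leukocyte gene Ptprc had 1, 0 and 2 quiescent and 9, 2 and 7 senescent counts. Of 6 smooth muscle and pericyte markers 5 were higher and 1 was lower, with a summed level of 24.3 to 29.1 CPM against 65.5 to 106.1 CPM. Of 4 tested endothelial markers 1 was lower and 1 higher. Of 5 mesothelial markers 3 were lower and 1 was higher, and the 1 tested epithelial marker was higher. These counts stand against 37.8% lower and 36.7% higher of all tested genes. The part of these shifts in the results on interferon-stimulated genes was not tested. Of the markers of plasmacytoid dendritic cells and lymphocytes, Siglech, Cd3e and Ncr1 had 0 counts in all 6 libraries, Cd3d and Nkg7 had at most 1 in any, and Cd79a had 10, 3 and 6 quiescent and 5, 2 and 4 senescent counts. Bst2 of that list is itself among the 48 genes. Without it the summed level was 0.0337 to 0.104 CPM in quiescent and 0.0224 to 0.0501 CPM in senescent libraries. Senescent replicate 3 stood apart, with 10% of tested genes more than 0.5 log2 units away from its own group, against 3.2% to 7% in the other libraries. In bulk RNA, fewer cells that express a gene and less of its RNA per cell cannot be told apart.

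Interferon-stimulated genes were mostly lower in senescent fibroblasts. Of the 45 tested, 37 fell, 3 rose and 5 did not pass the test, at an adjusted p under 0.05 in edgeR's quasi-likelihood test with Benjamini-Hochberg adjustment over all tested genes. Over all tested genes 37.8% were called lower and 36.7% higher, or 74.5% in either direction. The share called lower was 82.2% of the 45, with 6.67% higher. The median log2 fold change was -1.35, against -0.021 over all tested genes. Of the 45, 27 passed as lower with an estimate beyond 2-fold, a size that was not itself tested, against 14.3% of all tested genes. The 3 senescent libraries lay entirely below the 3 quiescent ones for 37 of the 45 genes and entirely above for 3, against 39.9% and 38.4% of all tested genes. The summed level of the 48 genes was 289.8, 298.0 and 295.8 CPM in quiescent libraries 1 to 3 and 157, 167 and 149.5 CPM in senescent libraries 1 to 3. Of the 45, 5 genes (Mx2, Cmpk2, Ddx60, Ifitm1 and Gbp5) passed the filter on low counts through the quiescent libraries alone. Each of them had a senescent library below the filter's cut-off, so a difference defines this set. Without them, 32 of 40 genes fell and 3 rose, with a median of -1.25. At an adjusted p under 0.01, the number of risen genes was 0, while edgeR called 32% of all tested genes lower and 32.2% higher.

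**Figure D1:**
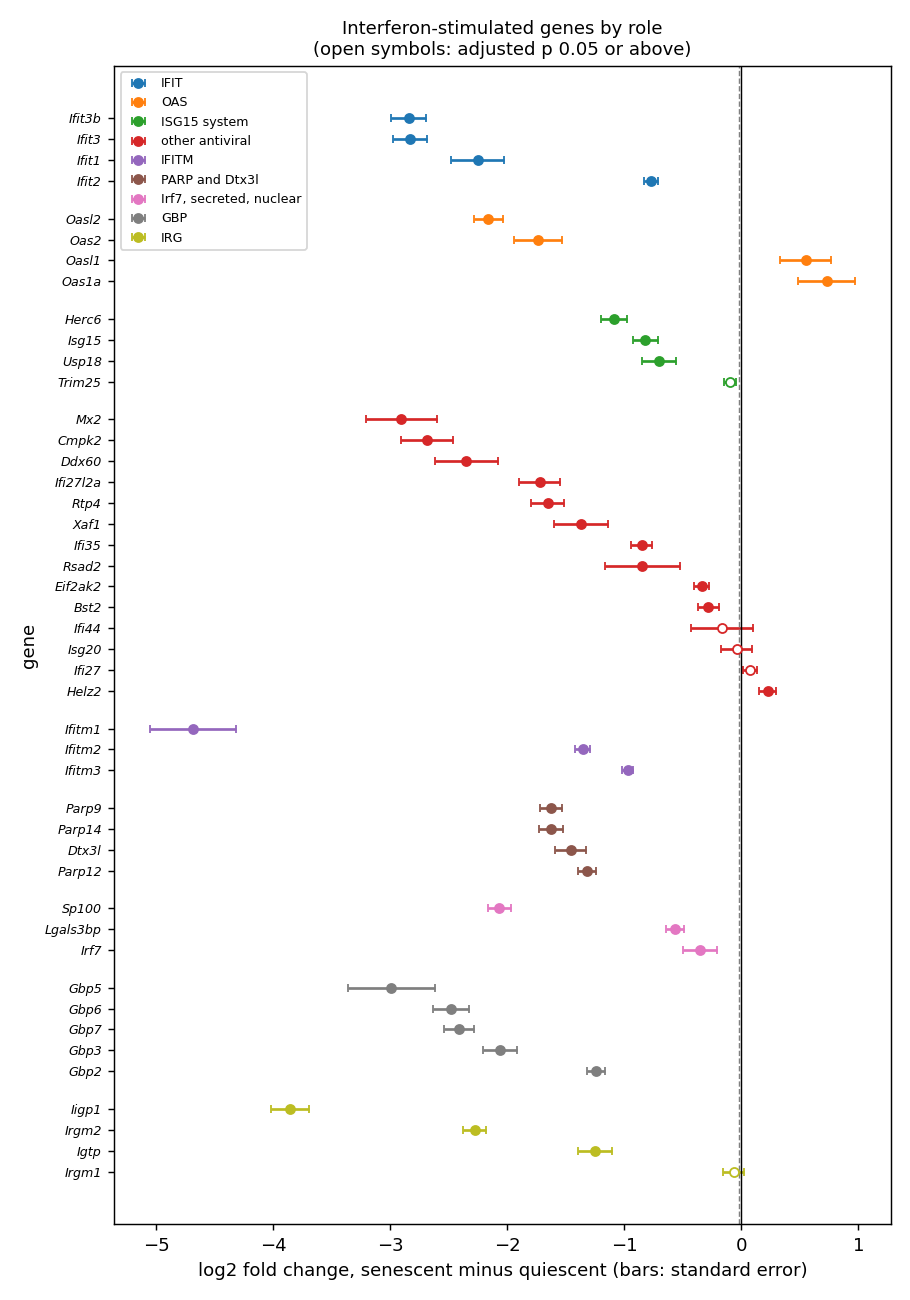
Log2 fold change of each tested interferon-stimulated gene, senescent minus quiescent, with its standard error (3 libraries per group), grouped by role. Filled symbols passed an adjusted p of 0.05, the solid line marks 0 and the dashed line the median of all tested genes (-0.021). 37 genes lie left of 0 with filled symbols, from Bst2 at -0.28 to Ifitm1 at -4.68, and 3 filled symbols lie to the right.

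Among the type I antiviral genes, the IFIT genes fell together. Of the IFIT proteins, Ifit1 binds viral RNA that lacks the cell's own cap methylation. The 4 IFIT genes in the list lie on chromosome 19 between 34550694 and 34650009 (GENCODE M21 annotation, GRCm38, the assembly that mm10 names). Ifit3 (chromosome 19, 34583531 to 34588731) had 13.0, 15.9 and 13.4 CPM in quiescent libraries 1 to 3 and 1.98, 2.46 and 1.56 CPM in senescent libraries 1 to 3. Every senescent library was far below every quiescent one (log2 fold change -2.83 with a standard error of 0.15, edgeR adjusted p = 2.3e-07). Ifit3b, a nearby copy of Ifit3, had 4.33, 5.10 and 4.04 CPM in quiescent libraries 1 to 3. In senescent libraries 1 to 3 it had 0.751, 0.659 and 0.476 CPM (log2 fold change -2.84 with a standard error of 0.15, edgeR adjusted p = 1.7e-08). Of the 100-base stretches in annotated Ifit3 transcripts, 31.7% also occur in Ifit3b, so reads can be shared and these are not independent measurements. Ifit1 fell by 2.25 on the log2 scale. Ifit2 fell least, from 12.7, 13.1 and 12.7 CPM to 7.95, 7.47 and 7.13 CPM (log2 fold change -0.77 with a standard error of 0.058, edgeR adjusted p = 2.5e-07), and its groups did not overlap either.

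The OAS genes did not share a direction. Oas proteins sense double-stranded RNA and make the second messenger that activates RNase L, and Oasl1 and Oasl2 encode Oas-like proteins. Oasl2 (chromosome 5, 114896936 to 114912234) had 3.33, 3.79 and 3.61 CPM in quiescent libraries 1 to 3 and 0.761, 0.983 and 0.671 CPM in senescent libraries 1 to 3 (log2 fold change -2.16 with a standard error of 0.13, edgeR adjusted p = 2.9e-08). Its neighbour Oasl1 (chromosome 5, 114923240 to 114937915) had 20, 32 and 30 counts in the quiescent libraries and 36, 36 and 34 in the senescent ones, and rose (log2 fold change 0.55 with a standard error of 0.22, edgeR adjusted p = 0.039). Adjacent paralogues thus moved in opposite directions, Oasl2 far down from the higher level and Oasl1 slightly up from a low count. The Oasl1 call was lost in DESeq2 (adjusted p = 0.104), with upper quartile scaling (edgeR adjusted p = 0.0779), with library totals (edgeR adjusted p = 0.343), and without quiescent replicate 1, quiescent replicate 2, senescent replicate 1 or senescent replicate 2 (edgeR adjusted p = 0.0578 to 0.148), so its rise is uncertain. Oas1a had 17, 26 and 28 counts in the quiescent libraries and 37, 37 and 30 in the senescent ones (log2 fold change 0.73 with a standard error of 0.24, edgeR adjusted p = 0.017). The senescent counts of Oas1a all exceeded the quiescent ones, but 40.9% of the 100-base stretches of its transcripts also occur in the near-identical Oas1g, and the call was lost with library totals and without quiescent replicate 1 or senescent replicate 2. Oas2 fell by 1.74 on the log2 scale, and Oas3, with 3, 5 and 4 counts in the quiescent libraries and 4, 8 and 4 in the senescent ones, was too low to be tested.

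Of the 4 genes of the ISG15 system 3 fell, and Trim25 did not pass. Isg15 is a ubiquitin-like protein that interferon makes cells attach to other proteins, Herc6 is a mouse ligase for it, Usp18 removes it and damps the receptor, and Trim25 is a ubiquitin ligase that activates the RNA sensor RIG-I. Isg15 (chromosome 4, 156199424 to 156200818) had 1.79, 1.99 and 1.75 CPM in quiescent libraries 1 to 3 and 1.02, 1.08 and 1.03 CPM in senescent libraries 1 to 3. The groups were well separated, with a fall of 0.82 on the log2 scale (standard error 0.11, edgeR adjusted p = 2.4e-05). Herc6, the gene of the list that fell most, had 2.62, 2.92 and 3.09 CPM in quiescent libraries 1 to 3 and 1.49, 1.41 and 1.17 CPM in senescent libraries 1 to 3 (log2 fold change -1.09 with a standard error of 0.11, edgeR adjusted p = 3.8e-06), and Usp18 fell by 0.70 on the log2 scale. Trim25 had 12.7, 13.1 and 12.6 CPM in quiescent libraries 1 to 3 and 11.8, 12.1 and 11.9 CPM in senescent libraries 1 to 3. These groups did not overlap but differed by only 0.099 on the log2 scale, short of the threshold (edgeR adjusted p = 0.092). Trim25 passed as lower with upper quartile scaling (-0.19, edgeR adjusted p = 0.0041) and with library totals (-0.40, edgeR adjusted p = 0.000188).

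The other antiviral genes ranged from steep falls to a small rise. Mx2, a dynamin-like GTPase, had 47, 70 and 39 counts in the quiescent libraries and 6, 6 and 6 in the senescent ones (log2 fold change -2.91 with a standard error of 0.30, edgeR adjusted p = 4.0e-06), and its relative Mx1 had 5, 9 and 3 counts in the quiescent libraries and 1, 0 and 0 in the senescent ones and was not tested. Cmpk2 and Rsad2 are neighbours on chromosome 12, and the protein of Rsad2, viperin, makes a chain-terminating nucleotide from the product of Cmpk2. Cmpk2 fell by 2.68 on the log2 scale, whereas Rsad2 had 27, 50 and 36 counts in the quiescent libraries and 13, 27 and 15 in the senescent ones, with 1 senescent library inside the quiescent range (log2 fold change -0.85 with a standard error of 0.32, edgeR adjusted p = 0.033). The Rsad2 call was lost in DESeq2 (adjusted p = 0.0549) and without quiescent replicate 2, quiescent replicate 3, senescent replicate 1 or senescent replicate 3 (edgeR adjusted p = 0.0515 to 0.141). The RNA helicase-like gene Ddx60 fell by 2.35, Ifi27l2a by 1.72, Rtp4 by 1.66, Xaf1 by 1.37 and Ifi35 by 0.85 on the log2 scale. Smaller falls were called for the double-stranded RNA-activated kinase gene Eif2ak2 (log2 fold change -0.34 with a standard error of 0.063, edgeR adjusted p = 4.5e-04) and for Bst2, which encodes the virion-retaining protein tetherin (log2 fold change -0.28 with a standard error of 0.092, edgeR adjusted p = 0.016), the latter lost without quiescent replicate 1 (edgeR adjusted p = 0.0755).

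Of these antiviral genes 3 did not pass and 1 rose. Ifi27, the most abundant of them, had 15.8, 14.8 and 15.7 CPM in quiescent libraries 1 to 3 and 16.3, 17.4 and 15.1 CPM in senescent libraries 1 to 3 (log2 fold change 0.074 with a standard error of 0.059, edgeR adjusted p = 0.28), while Ifi27l2a beside it on chromosome 12 fell. Isg20, an exonuclease gene, had 1.25, 1.34 and 1.43 CPM in quiescent libraries 1 to 3 and 1.41, 1.45 and 1.06 CPM in senescent libraries 1 to 3 (log2 fold change -0.042 with a standard error of 0.13, edgeR adjusted p = 0.79). Ifi44 had 0.395, 0.422 and 0.585 CPM in quiescent libraries 1 to 3 and 0.521, 0.481 and 0.253 CPM in senescent libraries 1 to 3 (log2 fold change -0.17 with a standard error of 0.26, edgeR adjusted p = 0.58). In Isg20 and Ifi44 the lowest of the 6 values was that of senescent replicate 3, and without that library their log2 fold changes turned to 0.098 and 0.11, still short of the threshold. With library totals Isg20 (-0.34, edgeR adjusted p = 0.0275) and Ifi27 (-0.23, edgeR adjusted p = 0.0129) passed as lower. Helz2, a helicase and nuclear receptor coactivator gene, had 10.1, 11.2 and 10.5 CPM in quiescent libraries 1 to 3 and 11.5, 12.0 and 13.8 CPM in senescent libraries 1 to 3. All 3 senescent values exceeded the quiescent ones, by a small margin (log2 fold change 0.23 with a standard error of 0.073, edgeR adjusted p = 0.015). With library totals in place of TMM scaling, Helz2 turned to -0.071 and the number of risen genes on the list went from 3 to 0, while 52.9% of all tested genes were called lower and 21% higher. Upper quartile scaling left 1 risen gene, Oas1a (42.7% of all tested genes lower, 31.8% higher). Leaving out quiescent replicate 1 left 0 (34.6% lower, 34.1% higher) and leaving out senescent replicate 2 left 1, Helz2 (36.1% lower, 35.7% higher).

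The interferon gamma-inducible GTPase genes had a lower median fold change than the antiviral genes. These proteins gather on the vacuoles of intracellular parasites and bacteria, the guanylate-binding proteins (GBP) as large GTPases and the immunity-related GTPases (IRG) as smaller ones that the Irgm proteins keep in check. All 9 were tested, 8 of them fell, each with an estimate beyond 2-fold, and their median log2 fold change was -2.28. The 26 tested antiviral genes had a median of -0.85, and 19 of them fell, 12 with an estimate beyond 2-fold. Of all tested genes, 37.8% were called lower, and 14.3% lower with an estimate beyond 2-fold. Without the genes that passed the filter through the quiescent libraries alone (Gbp5 here, Mx2, Cmpk2 and Ddx60 there), 7 of 8 GTPase genes fell with a median of -2.17, and 16 of 23 antiviral genes fell with a median of -0.82. Against the quiescent mean, the median was -2.07, -2.07 and -2.50 log2 units in senescent libraries 1 to 3 for the GTPase genes and -0.95, -0.77 and -1.07 for the antiviral genes. The GTPase median was the lower one in each of the 3 libraries. This order did not hold for every role list. The median was -2.54 for the IFIT genes, against -2.41 for the GBP and -1.76 for the IRG genes. It was -0.59 for the OAS genes, -0.76 for the ISG15 system and -0.85 for the other antiviral genes. The genes of a list are not replicates, and the difference between the lists was not tested.

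Among GBP genes, Gbp2, Gbp3, Gbp5 and Gbp7 lie together on chromosome 3 between 142493978 and 142638008. Gbp2 had 4.37, 4.44 and 4.44 CPM in quiescent libraries 1 to 3 and 1.91, 1.73 and 1.94 CPM in senescent libraries 1 to 3, the smallest fall of the 5 GBP genes (log2 fold change -1.24 with a standard error of 0.079, edgeR adjusted p = 5.9e-08). Gbp5, which promotes inflammasome assembly, had 29, 50 and 41 counts in the quiescent libraries and 7, 4 and 2 in the senescent ones (log2 fold change -2.99 with a standard error of 0.37, edgeR adjusted p = 1.8e-05). Gbp7 had 3.28, 3.34 and 3.08 CPM in quiescent libraries 1 to 3 and 0.601, 0.749 and 0.486 CPM in senescent libraries 1 to 3 (log2 fold change -2.41 with a standard error of 0.13, edgeR adjusted p = 1.6e-08). Gbp3 fell by 2.06 and Gbp6, on chromosome 5, by 2.48 on the log2 scale, the latter with 64.5% of its 100-base stretches shared with other annotated genes.

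Iigp1, an effector of the IRG family, had the lowest estimate of the 40 genes that passed the filter in all 6 libraries. It had 8.96, 10.7 and 12.9 CPM in quiescent libraries 1 to 3 and 0.792, 0.805 and 0.651 CPM in senescent libraries 1 to 3 (log2 fold change -3.86 with a standard error of 0.16, edgeR adjusted p = 2.8e-08), a change from 10.8 ± 1.96 CPM in quiescent and 0.749 ± 0.0851 CPM in senescent libraries (SD, n = 3 per group). Irgm2 (chromosome 11, 58199618 to 58222782) had 7.28, 6.92 and 6.97 CPM in quiescent libraries 1 to 3 and 1.48, 1.67 and 1.23 CPM in senescent libraries 1 to 3, with a narrow spread in both groups (log2 fold change -2.28 with a standard error of 0.096, edgeR adjusted p = 2.2e-09). Its neighbour Igtp fell by 1.25 on the log2 scale. The annotated exons of Irgm2 and Igtp share 162 bp on the same strand. Irgm1 (chromosome 11, 48861968 to 48871683), which lies elsewhere on chromosome 11, had 7.32, 7.71 and 7.70 CPM in quiescent libraries 1 to 3 and 6.96, 8.40 and 6.40 CPM in senescent libraries 1 to 3. These groups overlapped, and Irgm1 was the member of the GTPase list that did not pass (log2 fold change -0.066 with a standard error of 0.09, edgeR adjusted p = 0.53). Its log2 fold change was 0.021 without senescent replicate 3. Without senescent replicate 2 it was -0.18 (edgeR adjusted p = 0.0393), and with library totals -0.37 (edgeR adjusted p = 0.000887), both past the threshold.

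**Figure D2:**
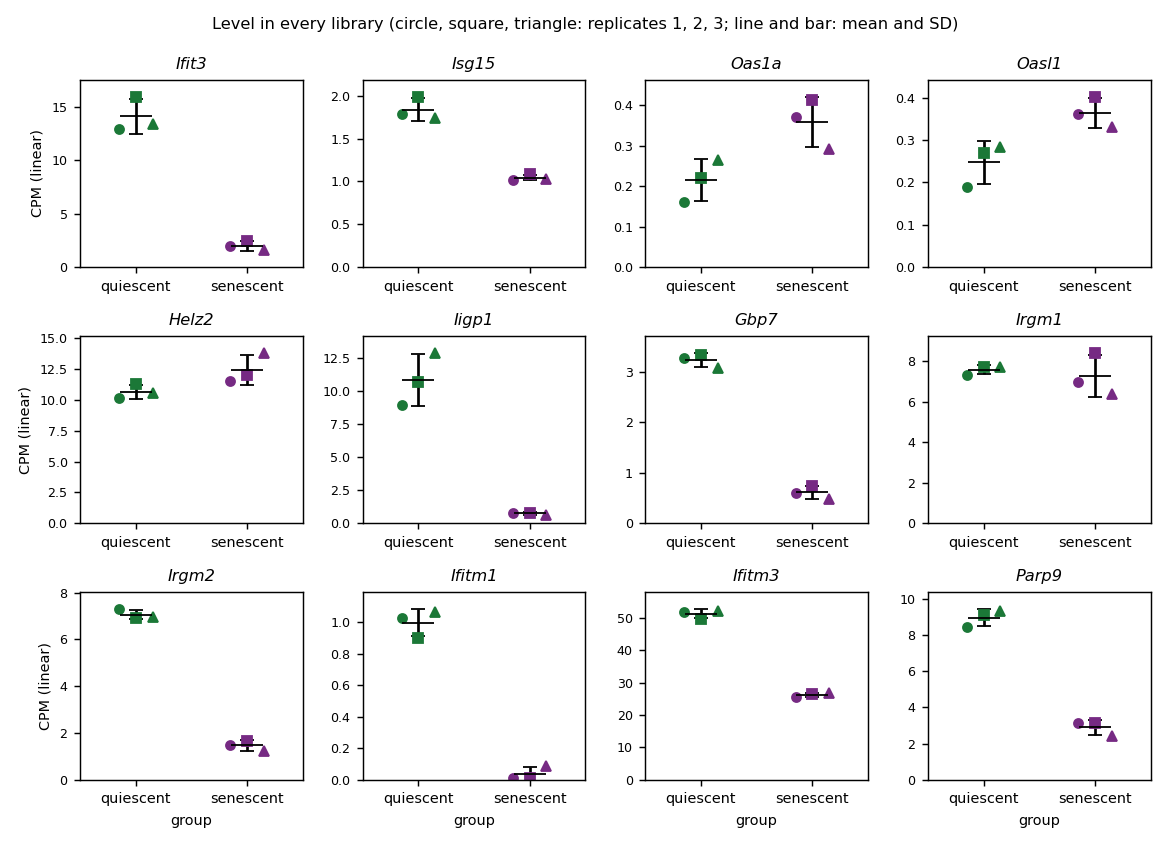
Level in every library of 12 interferon-stimulated genes, in CPM on linear axes that start at 0, for 3 quiescent (green) and 3 senescent (purple) libraries. Symbols stand for the replicate, lines for the mean and bars for the SD. Ifit3, Iigp1, Gbp7 and Irgm2 fall to a small part of their quiescent level, Ifitm3 to about 26.2 from 51.4 CPM, Irgm1 overlaps, and Oas1a, Oasl1 and Helz2 lie higher in senescent libraries.

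The promoters of Irgm1 and Irgm2, of the antiviral genes Ifit3 and Isg15 that fell, of Gbp7, and of Oas1a, which rose, are printed because they hold the same response element although the genes moved differently. The windows are RefSeq sequences of build GRCm38.p6, 5′ to 3′ on the strand of the gene, from 250 bases before to 50 after the annotated start. Capitals mark matches, on either strand, to GAAA, any 2 bases and again GAAA, the core of the interferon-stimulated response element, and to TTCNNNGAA, the core of a gamma-activated site, which reads the same on both strands.
Ifit3: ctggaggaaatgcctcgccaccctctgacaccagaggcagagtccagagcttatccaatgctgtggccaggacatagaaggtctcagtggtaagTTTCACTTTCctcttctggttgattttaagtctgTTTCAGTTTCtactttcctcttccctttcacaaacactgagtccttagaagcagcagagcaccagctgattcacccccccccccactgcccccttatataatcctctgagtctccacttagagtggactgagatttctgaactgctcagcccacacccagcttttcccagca
Isg15: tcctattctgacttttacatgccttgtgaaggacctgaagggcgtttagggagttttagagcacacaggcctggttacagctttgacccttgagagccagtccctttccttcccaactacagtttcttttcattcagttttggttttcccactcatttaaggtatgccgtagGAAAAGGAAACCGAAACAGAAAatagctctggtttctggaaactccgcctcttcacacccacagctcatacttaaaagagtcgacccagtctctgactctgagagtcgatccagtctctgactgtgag
Oas1a: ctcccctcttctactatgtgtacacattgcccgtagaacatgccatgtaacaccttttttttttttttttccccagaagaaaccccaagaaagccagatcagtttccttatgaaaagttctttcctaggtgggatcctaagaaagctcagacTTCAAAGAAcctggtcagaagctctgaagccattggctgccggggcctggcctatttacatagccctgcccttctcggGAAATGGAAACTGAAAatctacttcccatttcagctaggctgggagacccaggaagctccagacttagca
Gbp7: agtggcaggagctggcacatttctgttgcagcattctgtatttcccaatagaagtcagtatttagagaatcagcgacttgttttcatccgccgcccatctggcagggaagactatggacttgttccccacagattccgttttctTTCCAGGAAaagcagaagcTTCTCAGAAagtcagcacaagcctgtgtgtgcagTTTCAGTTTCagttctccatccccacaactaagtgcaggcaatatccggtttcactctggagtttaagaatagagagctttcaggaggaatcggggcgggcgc
Irgm2: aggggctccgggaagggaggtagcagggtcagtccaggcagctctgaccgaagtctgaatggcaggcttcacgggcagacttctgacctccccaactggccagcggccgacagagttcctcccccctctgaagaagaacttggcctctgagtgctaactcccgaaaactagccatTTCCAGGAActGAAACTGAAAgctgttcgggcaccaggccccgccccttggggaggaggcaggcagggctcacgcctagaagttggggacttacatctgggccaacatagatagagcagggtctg
Irgm1: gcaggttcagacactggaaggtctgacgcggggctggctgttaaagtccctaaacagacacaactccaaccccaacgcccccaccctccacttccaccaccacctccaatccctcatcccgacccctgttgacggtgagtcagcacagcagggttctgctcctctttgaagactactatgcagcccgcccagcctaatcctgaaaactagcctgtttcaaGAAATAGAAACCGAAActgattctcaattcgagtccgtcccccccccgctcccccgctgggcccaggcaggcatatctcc
The windows are chr19:34583279-34583578 (plus strand), chr4:156200769-156201068 (minus), chr5:120907476-120907775 (minus), chr3:142530086-142530385 (plus), chr11:58214727-58215026 (plus) and chr11:48871371-48871670 (minus). In Isg15, 3 overlapping response element cores run from 78 bases before the start, and in Ifit3 2 separate cores begin 156 and 122 bases before it. Irgm1, which did not pass, and Oas1a, which rose, each have 2 overlapping cores, the first 30 and 20 bases before the start. Irgm2 has 1 core 64 bases before the start with a gamma-activated site core 75 bases before it, and in Gbp7 the response element core begins 53 bases before the start with gamma-activated site cores at 106 and 87 bases. A match is a description of letters and not a bound site.

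Over the list, 37 of the 48 symbols matched 42 RefSeq windows. The response element core stood in a window of 20 of these 37 genes and TTCNNNGAA in a window of 11, with 8 genes holding both. Of all 32851 windows of the same length, 3.44% held the response element core and 8.3% held TTCNNNGAA. All 7 GTPase genes with a window held the response element core and 4 of them the gamma-activated site core. Of the 21 antiviral genes with a window, 10 held the first and 6 the second. Of the 35 tested members with a window, the 18 with a response element core had 16 lower and 1 higher gene and a median log2 fold change of -1.30, and the 17 without it had 12 lower and 2 higher and a median of -0.85. By the gamma-activated site core, the 11 with it had 9 lower (81.8%) and 1 higher and a median of -0.85. The 24 without it had 19 lower (79.2%) and 2 higher and a median of -1.34. The medians were thus in the reverse order to those of the response element split. The shares called lower were close in the split by the gamma-activated site core. In the split by the response element core they were 88.9% with it and 70.6% without it. Tested genes outside the list were called lower in 43.3% of 381 with the response element core and 37.5% of 10637 without it. For the gamma-activated site core the shares were 41.4% of 886 with it and 37.4% of 10132 without it. Other interferon-induced genes were not taken out of these sets. In Bst2 and Ifitm3 a match to each motif overlapped the other.

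All 3 IFITM genes fell, and Ifitm3 and Ifitm2 had the highest levels per length of the list. Their small membrane proteins block the fusion of enveloped viruses with endosomes, and the genes lie together on chromosome 7 between 140954837 and 141010770. Ifitm3 had 52.0, 49.9 and 52.4 CPM in quiescent libraries 1 to 3 and 25.6, 26.4 and 26.7 CPM in senescent libraries 1 to 3 (log2 fold change -0.97 with a standard error of 0.046, edgeR adjusted p = 5.4e-09). Ifitm2 fell by 1.35 on the log2 scale (standard error 0.064), with 34.9% of its 100-base stretches shared with other annotated genes. Ifitm1 had 109, 107 and 113 counts in the quiescent libraries and 1, 1 and 9 in the senescent ones (log2 fold change -4.68 with a standard error of 0.37, edgeR adjusted p = 4.7e-07), the lowest estimate of the 45 genes. Ifitm1 passed the filter through the quiescent libraries alone, since its senescent counts lay below the cut-off. Senescent replicate 3 held 9 of its 11 senescent counts, and without that library the log2 fold change was -6.40. The 3 genes together made up 25.3% of the summed CPM of the 48 genes in quiescent and 22.1% in senescent libraries.

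All 4 genes of the PARP group fell by similar amounts. Parp9 and Dtx3l encode a mono-ADP-ribosyltransferase family member and its ubiquitin ligase partner, and Parp12 and Parp14 encode antiviral ADP-ribosyltransferases. Parp9 (chromosome 16, 35938470 to 35972605) had 8.46, 9.09 and 9.35 CPM in quiescent libraries 1 to 3 and 3.14, 3.16 and 2.43 CPM in senescent libraries 1 to 3 (log2 fold change -1.63 with a standard error of 0.096, edgeR adjusted p = 3.3e-08). Parp12, with the smallest fall of the group, had 5.78, 5.84 and 5.60 CPM in quiescent libraries 1 to 3 and 2.17, 2.50 and 2.23 CPM in senescent libraries 1 to 3 (log2 fold change -1.32 with a standard error of 0.077, edgeR adjusted p = 2.9e-08). Dtx3l fell by 1.46 and Parp14 by 1.62 on the log2 scale. Parp14, Dtx3l and Parp9 are adjacent on chromosome 16. The annotated exons of Dtx3l and Parp9 overlap by 458 bp on opposite strands, and since the use of strand in counting is not stated, reads from that stretch cannot be assigned with certainty.

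The remaining genes were a transcription factor, a chemokine, a secreted glycoprotein and a nuclear body protein. Irf7, the factor that amplifies type I interferon production, had 1.84, 2.05 and 1.83 CPM in quiescent libraries 1 to 3 and 1.63, 1.75 and 1.12 CPM in senescent libraries 1 to 3 (log2 fold change -0.35 with a standard error of 0.15, edgeR adjusted p = 0.048). The difference was small, and the call was lost without senescent replicate 3 (log2 fold change -0.17, edgeR adjusted p = 0.15), without senescent replicate 1, without any 1 quiescent library, with RLE scaling and in DESeq2. Sp100, a nuclear body protein gene, had 6.20, 6.19 and 5.52 CPM in quiescent libraries 1 to 3 and 1.51, 1.54 and 1.22 CPM in senescent libraries 1 to 3 (log2 fold change -2.07 with a standard error of 0.099, edgeR adjusted p = 5.6e-09). Lgals3bp, which encodes a secreted galectin-binding glycoprotein, had 25.2, 24.6 and 27.2 CPM in quiescent libraries 1 to 3 and 17.0, 19.4 and 15.6 CPM in senescent libraries 1 to 3 (log2 fold change -0.57 with a standard error of 0.075, edgeR adjusted p = 3.7e-05). Cxcl10, a chemokine gene induced by both interferon types, had 7, 17 and 13 counts in the quiescent libraries and 8, 3 and 4 in the senescent ones and was not tested.

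Levels between genes were compared per kilobase (kb) of merged GENCODE exon, as CPM per kb. Ifitm3 led the 48 genes with 75.8 CPM per kb in quiescent and 38.7 in senescent libraries, followed by Ifitm2 (33.7 and 13.2), Ifi27 (10.5 and 11.1) and Lgals3bp (9.02 and 6.09). These 4 held the same ranks in both groups. Below them the order changed. Ifit3 went from rank 5 (8.08 CPM per kb) to rank 12 (1.15), Iigp1 from rank 15 (1.86) to rank 33 (0.129) and Ifitm1 from rank 24 (0.912) to rank 41 (0.0331). Irgm1 moved from rank 19 to rank 11 with a nearly equal level (1.30 and 1.25), and Helz2 from rank 23 to rank 13. Across the 45 tested genes the rank correlation of the log2 fold change with the quiescent level per kb was 0.13 (Spearman, a description across genes from the same 6 libraries). With the senescent level it was 0.54, and the quiescent and senescent levels correlated at 0.88. Both levels enter the fold change, so these values share measurements.

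**Figure D3:**
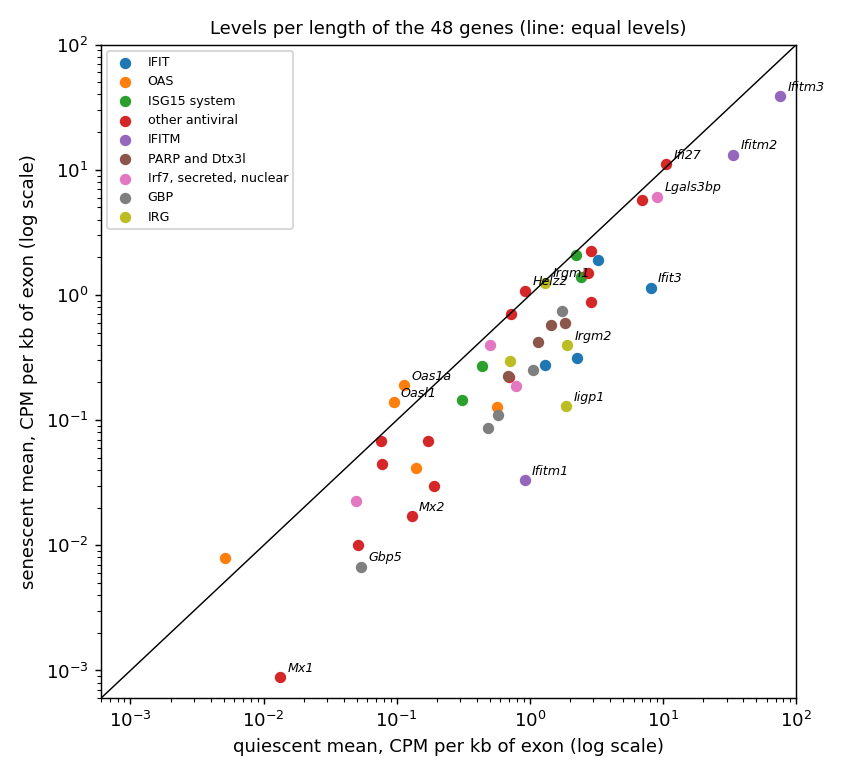
Mean level per kb of exon of the 48 interferon-stimulated genes in 3 quiescent (horizontal) and 3 senescent (vertical) libraries, in CPM per kb on log axes, coloured by role, with a line at equal levels. Most points lie below the line, Iigp1 and Ifitm1 far from it, while Ifi27 and Irgm1 lie close to it. Mx1, at the lower left, was too low to be tested.

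Within each group the highest and lowest values of the listed genes were not spread evenly over the libraries. In senescent replicate 3 the listed genes were lowest of the 3 senescent libraries in 34 of 45 cases (75.6%), while over all tested genes this library was lowest in 40.2% and highest in 40%. Senescent replicate 2 was highest for 31 of the 45 (68.9%, against 33.6% of all tested genes). Set against the other senescent libraries, the median difference of the listed genes was -0.31 log2 units in replicate 3, 0.24 in replicate 2 and 0.020 in replicate 1. Among quiescent libraries, replicate 2 was highest for 26 of the 45 (57.8%, against 32.1%), with a median difference of 0.071. The spread within groups was small beside the difference between them, since the medians against the quiescent mean were -1.42, -1.19 and -1.56 in senescent libraries 1 to 3. Without senescent replicate 3, 35 of the listed genes fell and 4 rose, against 37.9% and 37.3% of all tested genes, and Ifi27 passed as higher.

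**Figure D4:**
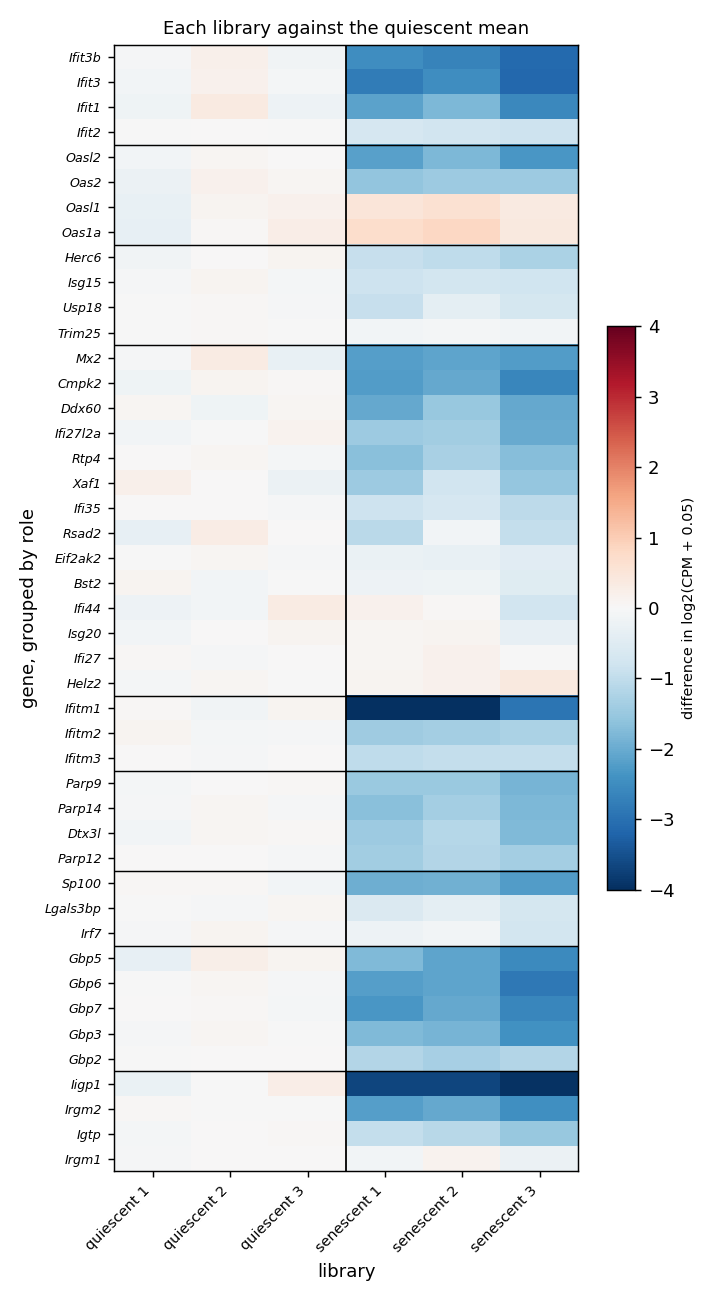
Difference of each library from the mean of the 3 quiescent libraries in log2(CPM + 0.05) for the 45 tested interferon-stimulated genes, grouped by role, blue for lower and red for higher. Senescent columns are blue for most genes, palest in replicate 2 and darkest in replicate 3 for most of them, and Oas1a and Oasl1 are red in all 3.

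The interferons themselves were hardly detected. Of 21 interferon ligand genes, 15 had 0 counts in all 6 libraries and 20 had at most 2 counts in any library, among them Ifnb1 (1, 0 and 0 quiescent and 0, 0 and 0 senescent counts) and Ifng (0, 0 and 0 and 0, 0 and 1). A count of 0 allows up to 3 counts, or 0.0253 to 0.0335 CPM depending on the library, for counting error only. Ifnz had 8 to 12 counts in every library and no called difference (log2 fold change -0.051 with a standard error of 0.31, edgeR adjusted p = 0.91). The type I receptor genes fell modestly, Ifnar1 by 0.46 and Ifnar2 by 0.70 on the log2 scale. The chains of the interferon gamma receptor diverged: Ifngr1 fell by 0.33, whereas Ifngr2 had 13.3, 13.0 and 11.8 CPM in quiescent libraries 1 to 3 and 23.9, 24.8 and 26.9 CPM in senescent libraries 1 to 3 (log2 fold change 0.99 with a standard error of 0.062, edgeR adjusted p = 5.6e-08). Of 9 receptor and kinase genes, 6 fell and 2 rose, against 37.8% lower and 36.7% higher of all tested genes. Il10rb, a chain of the interferon lambda receptor, fell by 0.48, and Jak1 rose by 0.19, an increase that was lost with upper quartile scaling (0.093) and turned to -0.11 with library totals.

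Of 8 STAT and IRF genes reported here, 6 fell and 1 rose, against 37.8% lower and 36.7% higher of all tested genes. Stat2 had 27.2, 26.0 and 26.5 CPM in quiescent libraries 1 to 3 and 7.10, 6.95 and 5.71 CPM in senescent libraries 1 to 3 (log2 fold change -2.01 with a standard error of 0.075, edgeR adjusted p = 1.1e-09). Irf9, its DNA-binding partner, fell by 0.86 on the log2 scale and Irf1, a target and effector of interferon gamma, by 0.89. Stat2 and Irf9 are interferon-stimulated themselves. Irf5 rose, from 0.395, 0.422 and 0.472 CPM to 1.20, 1.08 and 1.56 CPM (log2 fold change 1.58 with a standard error of 0.17, edgeR adjusted p = 5.5e-06). Irf5 is abundant in macrophages, whose markers also rose, and the part of such cells in its rise was not tested.

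Of 8 negative regulators, 3 fell and 3 rose, which are shares near the 37.8% lower and 36.7% higher of all tested genes. Socs3 fell by 0.79 on the log2 scale, while Irf2bp2 rose by 1.03 and Ptpn11 by 0.54. Ptpn6, at 15, 21 and 23 counts in the quiescent libraries and 6, 6 and 9 in the senescent ones, fell by 1.30. Ptpn6 passed the filter on low counts through the quiescent libraries alone, with its senescent counts below the cut-off. Of 12 sensor and adaptor genes that raise interferon after infection, 8 fell and 1 rose, against the same shares, with the endosomal RNA sensor gene Tlr3 at -1.34, the cytosolic helicase gene Dhx58 at -1.14 and the adaptor gene Traf3 at 1.47. Of 58 further interferon-induced genes outside the list, 48 were tested, 39 fell and 3 rose, with a median log2 fold change of -1.10. That is 81.2% called lower, close to the 82.2% of the 45. Among them the immunoproteasome gene Psmb9 had 18, 24 and 10 counts in the quiescent libraries and 2, 1 and 2 in the senescent ones. Gbp11 had 17, 18 and 19 counts in the quiescent libraries and 3, 0 and 0 in the senescent ones. Both passed the filter on low counts through the quiescent libraries alone, as did Gbp10, Ifit1bl1 and Ifit1bl2. Each of these genes had a senescent library below the cut-off, and the 81.2% includes them. The genes with the largest rises were Slfn2, at 2.40 (82, 100 and 107 quiescent and 440, 401 and 514 senescent counts), and Tor3a, at 0.79.

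**Figure D5:**
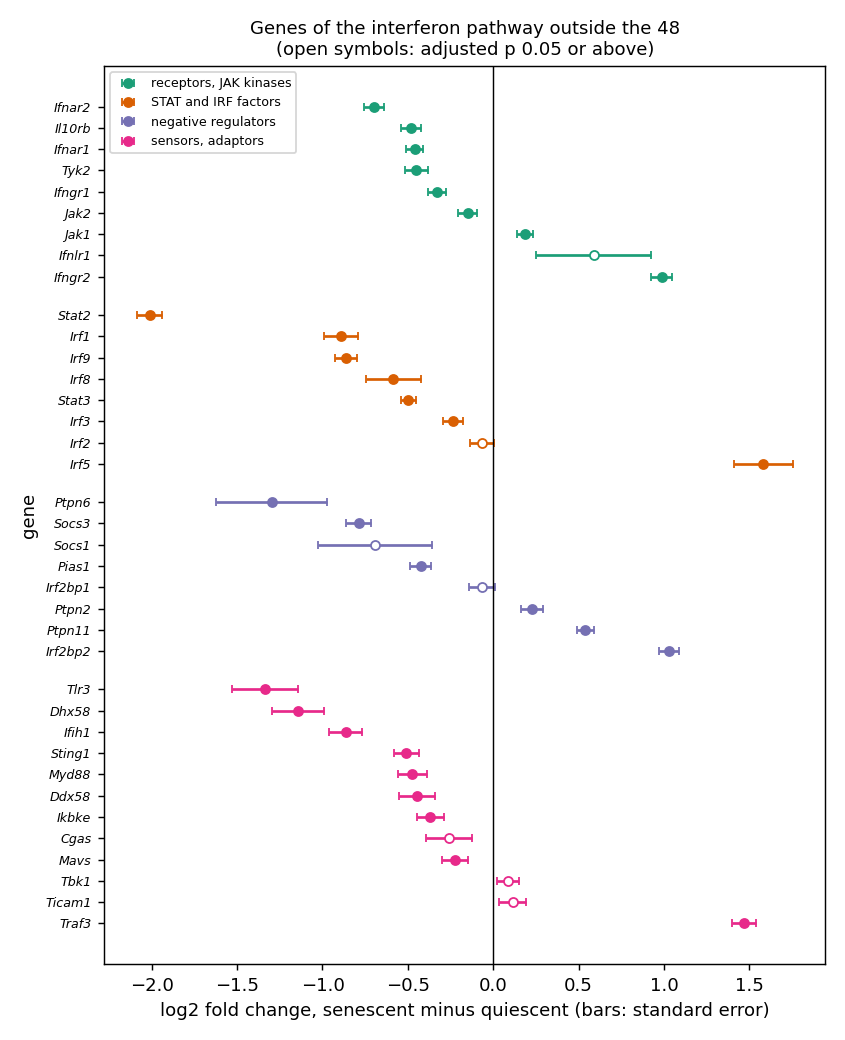
Log2 fold change, senescent minus quiescent, with its standard error (3 libraries per group) of tested interferon pathway genes outside the list of 48, grouped as receptors and kinases, STAT and IRF factors, negative regulators, and sensors and adaptors. Stat2 (-2.01) lies farthest left, Irf5 (1.58) and Traf3 (1.47) farthest right, and open symbols did not pass an adjusted p of 0.05.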

How the data were processed

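Whole-transcript RNA of 3 quiescent and 3 senescent fibroblast samples was measured. The values the authors deposited are raw counts per gene, whole numbers that were not normalized. The submitters' processing notes name mm10, edgeR 3.32.1 and limma 3.46.0 without a role. No source used here gives the aligner, the counter, its annotation or the use of strand. Depth was 93736593 to 109706025 counts per library. PCR reads carry no molecular identifiers, so depth bears on counting error only. The deposited repeat table was not used.

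Samples were grouped by their titles. The test was edgeR 4.0.16's quasi-likelihood F test (R 4.3.3, robust fit, TMM scaling). Genes entered it by filterByExpr at a minimum count of 10, and p-values of the 14065 tested genes were adjusted by Benjamini-Hochberg, with a threshold of 0.05. The standard error is the log2 fold change over the square root of F. Lists were described by counts and medians, with no set test. Alternatives were DESeq2 1.42.0, limma-voom (limma 3.58.1), other scalings, filters and thresholds, a replicate block and each library left out. Exon lengths, shared 100-base stretches and overlaps came from GENCODE M21, which held all 48 symbols, and promoters from RefSeq GRCm38.p6.

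The 48 genes and the other lists were chosen with earlier results of these data known. Values in every library were to be given, per role list, for the most abundant gene, those with the lowest and highest log2 fold change, and every gene that rose or did not pass. From each pathway list, up to 2 genes in each direction were named, with Stat2, Irf9 and Irf1 in any case. A few results are not reported here. Isg15, Irgm2, Gbp7, Rsad2 and other genes named beyond this were chosen after their values were seen.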

Additional observations from a re-analysis of the deposited data

How the results depend on the processing

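Of the 45 tested interferon-stimulated genes, 34 kept their direction and their side of the threshold under all 16 alternatives, and all 34 were lower. Over all tested genes 37.8% were called lower in the main test. How many of those kept the call under every alternative was not counted. The genes called lower that lost the call in some alternative were Bst2, Rsad2 and Irf7. With library totals in place of TMM, the median of all genes was -0.32 (log2) and there were 7435 lower and 2952 higher genes in place of 5316 and 5158. The same scaling moved the medians of all listed, antiviral and GTPase genes to -1.65, -1.15 and -2.58, left 0 risen genes on the list and among its antiviral genes, and gave 1 risen receptor or kinase gene and 5 fallen negative regulators. Relative to that shift of all genes the listed genes stayed lower. Upper quartile scaling moved the median of all genes to -0.12 and left 1 risen gene on the list, 1 among the antiviral genes and 1 among receptors and kinases. At an adjusted p under 0.01, 0 genes of the list and 0 of its antiviral genes rose, while edgeR called 32.2% of all tested genes higher and 32% lower.

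Leaving out each library in turn, 35 to 38 listed genes fell and 0 to 4 rose. Over all tested genes, 4901 to 5416 were called lower and 4860 to 5331 higher. The antiviral genes gave 0 to 4 risen genes and a median of -1.03 to -0.78, and the GTPase genes a median of -2.38 to -2.16. Signs reversed for Ifi27 with upper quartile scaling (-0.020) and library totals (-0.23), and for Helz2 (-0.071) and Jak1 (-0.11) with library totals. Leaving out each library in turn, Isg20 ranged from -0.12 to 0.098, Ifi44 from -0.36 to 0.11 and Irgm1 from -0.18 to 0.021, with reversed signs without senescent replicate 3 and, for Isg20 (0.007) and Ifi44 (0.022), without quiescent replicate 3. The cause was not tested. Leaving out the 5 genes that passed the filter through the quiescent libraries alone was an alternative chosen after seeing the data. It gave 32 fallen and 3 risen genes of 40 and a median of -1.25. Over all tested genes, not restricted in this way, 37.8% were called lower and 36.7% higher. Genes near 10 counts per library (Oas3, Cxcl10, Mx1) are limited by depth.

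Same-numbered samples had correlated deviations of only 0.051, -0.010 and 0.058, so the numbers were not taken as pairs. With the replicate block 37 listed genes fell and 3 rose, the medians were -1.35 for all listed, -0.84 for antiviral and -2.28 for GTPase genes, and all genes gave 5281 lower (37.5%) and 5124 higher (36.4%). Not every sample correlated best with its own number.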
